A study of Mus musculus with 8 samples.

Results

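The genes described here are 7 brakes on the cell cycle, chosen by name with earlier results of these data known. They comprise the INK4 inhibitors Cdkn2a, Cdkn2b, Cdkn2c and Cdkn2d, the CIP/KIP inhibitors Cdkn1a and Cdkn1b, and the retinoblastoma gene Rb1. They are 7 of the 23929 gene symbols in the data, and all 7 were among the 10479 genes tested, those reaching 1 FPKM in 2 or more libraries. RNA was measured in 4 untreated mouse pro-B cell lines of strain 129SV from bone marrow, with 2 libraries a line. The WT line is labelled wild type. The lines labelled CBE-/- (1) and CBE-/- (2), called CBE-1 and CBE-2 here, share the genotype IGCR1-/-, a deletion of the regulatory region of the immunoglobulin heavy chain locus that holds CTCF-binding elements. The Eµ-/- line lacks the intronic enhancer of that locus.

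The WT and Eµ-/- genotypes are each represented by 1 line, so for them genotype and line cannot be told apart. IGCR1-/- is represented by 2 lines, and these are compared with each other below. The labels do not say whether a line's libraries are of separate cultures, so each p-value reflects library-to-library spread only, and that spread may be technical. In bulk RNA, fewer cells making a transcript and less transcript per cell cannot be told apart. Of 12 pro-B cell markers, 12 were at FPKM of 1 or more in the 3 mutant lines and 10 in WT, where Rag1 and Rag2 were below 1. Of 8 T cell markers only Lck reached 1, at 82.0 and 66.3 in WT and 17.0 to 52.0 in the mutants, and Cd3e was listed at 0 throughout. Stromal and erythroid markers summed to at most 0.609 and 0.132 FPKM, and the 8 myeloid markers found in the files summed to between 3.05 and 11.9. The part of those RNAs in the results was not tested.

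The INK4 proteins bind CDK4 and CDK6 and keep them from pairing with D-type cyclins, and the CIP/KIP proteins bind cyclin-CDK complexes, above all those of CDK2. Active CDKs phosphorylate RB1 and release the E2F transcription factors that drive entry into S phase. Cdkn2a encodes 2 unrelated proteins from separate first exons: p16INK4A, an INK4 inhibitor, and p19ARF, which binds MDM2 and thereby stabilizes p53. Cdkn1a encodes p21, a p53 target, and Cdkn1b encodes p27, whose level is set by the SKP2 ubiquitin ligase and by FOXO factors. In B cell precursors, loss of Cdkn2a is a common route to sustained growth.

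The gene entries on mouse build mm9 put Cdkn2a at chr4:88920377-88940523 and its neighbour Cdkn2b at chr4:88952198-88956941. Cdkn2c lies farther along the same chromosome at chr4:109333481-109337977. Cdkn2d was listed at 2 places, chr9:21092908-21095653 and chr9:123836860-123839607, and its values were summed. The first place had 1.11 to 1.15 times the FPKM of the second in every library, so how reads were shared between the copies is uncertain, but the ratio was alike in all lines. Cdkn1a is at chr17:29227931-29237667, Cdkn1b at chr6:134870419-134875543 and Rb1 at chr14:73595309-73725598.

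The start regions of the 3 most variable members are shown because the values are sums over a gene's transcripts, and Cdkn2a and Cdkn1a each have 2 RefSeq windows. Each window runs from 250 bases before to 50 after a start, is printed 5′ to 3′ on the gene's strand, and comes from RefSeq on GRCm38.p6. Capitals mark matches on either strand to the E2F motif (TTTCCCGC, TTTCGCGC, TTTGCCGC or TTTGGCGC) or to the GC box GGGCGG. The first window is the upstream start of Cdkn2a, that of the Arf transcript, at chr4:89294570-89294869 (minus strand), and the second is the p16Ink4a start at chr4:89282143-89282442 (minus strand). Cdkn2b is shown at chr4:89310983-89311282 (minus strand) and Cdkn1a at chr17:29093519-29093818 (plus strand), the downstream of its starts.
Cdkn2a upstream start: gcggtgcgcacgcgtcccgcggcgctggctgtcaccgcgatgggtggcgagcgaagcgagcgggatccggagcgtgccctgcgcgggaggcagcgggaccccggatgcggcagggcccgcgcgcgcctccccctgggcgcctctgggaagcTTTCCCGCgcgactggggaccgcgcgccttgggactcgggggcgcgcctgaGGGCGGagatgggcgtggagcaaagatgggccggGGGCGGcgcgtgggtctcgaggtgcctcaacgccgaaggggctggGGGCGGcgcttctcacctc
Cdkn2a downstream start: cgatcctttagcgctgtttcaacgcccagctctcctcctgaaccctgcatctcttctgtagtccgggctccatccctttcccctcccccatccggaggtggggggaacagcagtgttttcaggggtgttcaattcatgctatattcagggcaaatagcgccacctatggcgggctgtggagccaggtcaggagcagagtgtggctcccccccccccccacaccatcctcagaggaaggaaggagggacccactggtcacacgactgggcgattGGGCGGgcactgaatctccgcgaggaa
Cdkn2b: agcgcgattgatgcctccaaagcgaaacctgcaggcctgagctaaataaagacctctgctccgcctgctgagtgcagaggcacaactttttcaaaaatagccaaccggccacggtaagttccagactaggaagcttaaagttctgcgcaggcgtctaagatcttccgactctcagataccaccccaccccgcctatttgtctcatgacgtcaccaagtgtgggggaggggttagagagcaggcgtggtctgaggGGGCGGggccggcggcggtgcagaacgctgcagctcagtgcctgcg
Cdkn1a downstream start: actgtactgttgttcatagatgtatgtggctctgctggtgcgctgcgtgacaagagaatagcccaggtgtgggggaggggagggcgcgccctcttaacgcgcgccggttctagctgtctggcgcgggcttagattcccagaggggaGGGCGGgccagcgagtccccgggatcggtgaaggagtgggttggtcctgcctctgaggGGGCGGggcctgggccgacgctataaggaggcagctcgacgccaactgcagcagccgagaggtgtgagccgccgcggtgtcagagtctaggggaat

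The upstream Cdkn2a window held 45 CG dinucleotides, 1 E2F match and 3 GC boxes. The downstream one held 12 CG dinucleotides, no E2F match and 1 GC box. The Cdkn2b window had 18 CG dinucleotides and 1 GC box, and the downstream Cdkn1a window had 23 and 2. The other Cdkn1a window, at chr17:29090729-29091028 (plus strand), had 2 CG dinucleotides and no GC box, and it is not printed. Across all 32851 windows of this length the median was 7 CG dinucleotides, 2.26% held an E2F match and 35.7% a GC box. RefSeq windows were found for 6 of the 7 genes, 9 windows in all. None of the 9 matched TATAAA (13.6% of all windows), the forkhead motif GTAAACA (3.65%) or the p53 response element consensus (0.00913%) on either strand. The p53 consensus had to match in full, as it did in only 3 of the 32851 windows. The Cdkn1a window not printed holds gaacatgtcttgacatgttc, a near match to that consensus. The motifs searched can overlap, and a match is a description of letters only.

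Cdkn2a was the member that ranged most between lines, and because it was picked for that range its levels are given without a test. Its FPKM were 142.8 and 143.6 in WT, 17.4 and 26.8 in CBE-1, 381.0 and 371.1 in CBE-2, and 20.1 and 26.5 in Eµ-/-. The order of the means was therefore CBE-2 (376.1 ± 6.97, SD, n = 2), WT (143.2 ± 0.573), Eµ-/- (23.3 ± 4.51) and CBE-1 (22.1 ± 6.61). Both CBE-2 libraries were above every other library, and those of CBE-1 and Eµ-/- overlapped. The ratio of mean FPKM was 2.63 for CBE-2 over WT, 6.48 for WT over CBE-1 and 6.14 for WT over Eµ-/-. The lines of the same IGCR1-/- genotype were 17.0-fold apart in mean FPKM, on either side of WT. The reads implied by the FPKM intervals were less far apart, at 757 and 785 in CBE-1 and 2387 and 2347 in CBE-2. The cause of that mismatch was not tested, so the size of the fold is uncertain. Of the 10479 genes tested, 99.3% had a smaller range of line means on the log2(FPKM + 1) scale, where that of Cdkn2a was 4.06. An FPKM per gene does not separate p16Ink4a from Arf transcripts, so which of the starts shown above contributed in each line was not analysed here.

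**Figure D1:**
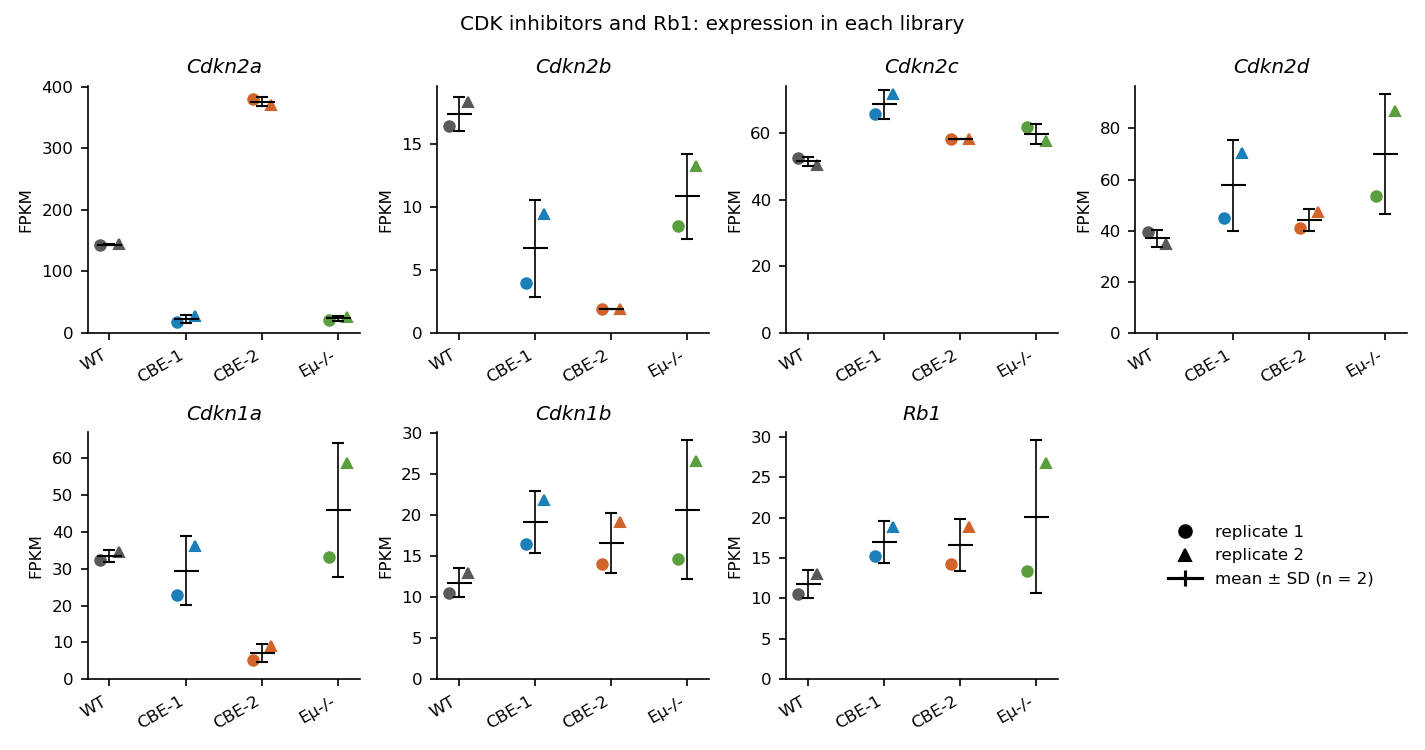
FPKM (linear axis from 0, 1 panel a gene) in each line; circles are replicate 1, triangles replicate 2, and bars the mean ± SD (n = 2). Cdkn2a runs from 17.4 to 381.0, Cdkn2b and Cdkn1a are lowest in both CBE-2 libraries, and Cdkn2c stays between 50.6 and 71.8.

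Cdkn2b, which encodes the INK4 inhibitor p15, fell in both CBE lines, and not in the order of its neighbour Cdkn2a. Its FPKM were 16.5 and 18.4 in WT, 4.004 and 9.45 in CBE-1, 1.90 and 1.88 in CBE-2, and 8.49 and 13.3 in Eµ-/-. WT was highest and CBE-2 lowest, neither overlapping any other line, while CBE-1 and Eµ-/- overlapped. Differences here and below are on the log2(FPKM + 1) scale, with limma's moderated standard error (SE) and a p-value adjusted by Benjamini-Hochberg over all genes tested. The difference of CBE-2 from WT was -2.67 (SE 0.35, adjusted p = 0.00231) and was called without any 1 of the 8 libraries. The CBE-1 difference was -1.35 (adjusted p = 0.0381). That call was lost without WT replicate 1 (0.133), WT replicate 2 (0.189), CBE-1 replicate 1 (0.0947), CBE-2 replicate 1 (0.0695) or CBE-2 replicate 2 (0.0696). It was also lost without the filter on low values (0.0747) and when only these 2 lines were fitted (0.0909). Eµ-/- differed from WT by -0.66 (adjusted p = 0.218, 95% interval -1.49 to 0.16).

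Between the mutant lines, Cdkn2b was 3.56-fold lower in CBE-2 than in CBE-1 by mean FPKM, a log2 difference of -1.32 (adjusted p = 0.0620, or 0.0175 with the replicate number as a block). This difference also passed 0.05 with a pseudocount of 0.1 (0.0451), median-of-ratios scaling (0.0484), quantile normalization (0.0332) or without CBE-1 replicate 1 (0.0150). Eµ-/- was higher than CBE-2 by 2.01 (adjusted p = 0.0120). That call was lost without CBE-2 replicate 1 (0.0816), CBE-2 replicate 2 (0.0863) or Eµ-/- replicate 2 (0.0651). Eµ-/- was higher than CBE-1 by 0.69 (adjusted p = 0.309), and this passed only without CBE-1 replicate 2 (0.0476). The 2 adjacent genes thus stood in different proportion in each line. Per length, Cdkn2a FPKM was 8.67 and 7.80 times that of Cdkn2b in WT, 4.35 and 2.83 times in CBE-1, and 2.37 and 2.00 times in Eµ-/-. In CBE-2 the ratio was 200.8 and 197.1.

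Other genes near Cdkn2a were low or changed little. Of 40 symbols whose start lay within 1 Mb, 4 passed the filter on low values: Cdkn2a, Cdkn2b, Mtap and Klhl9. The 36 others, among them 17 type I interferon genes, were at most 0.496 FPKM in any library. Mtap, the methylthioadenosine phosphorylase gene, had 55.2 and 49.6 FPKM in WT, 48.3 and 41.6 in CBE-1, 55.3 and 47.1 in CBE-2, and 61.6 and 52.4 in Eµ-/-. None of the Mtap differences from WT passed the test (adjusted p = 0.327, 0.897 and 0.586 in that order of the mutants). Klhl9, a ubiquitin ligase adaptor gene, had 13.8 and 13.8 FPKM in WT, 10.2 and 11.0 in CBE-1, 13.2 and 13.9 in CBE-2, and 11.99 and 11.6 in Eµ-/-. It fell by 0.35 in CBE-1 (adjusted p = 0.0346), and its differences in CBE-2 (-0.02, 0.895) and Eµ-/- (-0.21, 0.140) did not pass. The Klhl9 call was lost without either WT library (0.182 and 0.199 for replicates 1 and 2), either CBE-1 library (0.128 and 0.0521) or either CBE-2 library (0.0899 and 0.0896), after TPM scaling (0.0671) and with only these 2 lines fitted (0.0858).

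**Figure D2:**
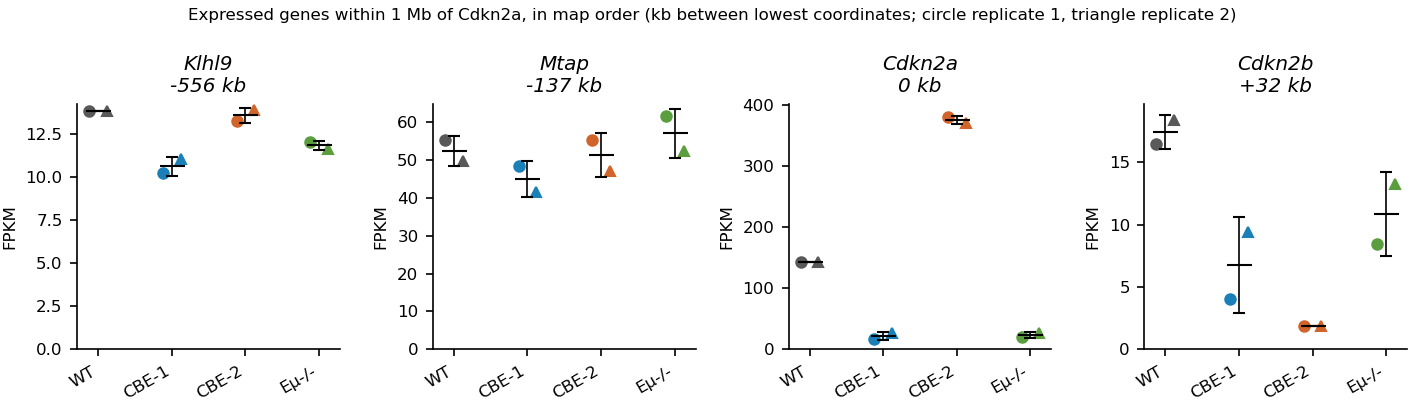
FPKM (linear axes from 0) of the 4 genes within 1 Mb of Cdkn2a that passed the filter on low values, in map order with the distance in kb between lowest coordinates; circles are replicate 1, triangles replicate 2, and bars the mean ± SD (n = 2). Cdkn2a and the adjacent Cdkn2b differ widely between lines and in different orders, while Klhl9 and Mtap lie close together in all 4 lines.

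Cdkn2c, the p18 gene, varied least of the 7. Its FPKM were 52.5 and 50.6 in WT, 65.7 and 71.8 in CBE-1, 58.2 and 58.3 in CBE-2, and 61.9 and 57.7 in Eµ-/-. All 6 mutant libraries were above both WT libraries. How large a share of all genes tested showed this is not given, here or for Cdkn2d below. It rose in CBE-1 by 0.41 (SE 0.09, adjusted p = 0.0224). The call was lost without WT replicate 1 (0.115), WT replicate 2 (0.174), CBE-1 replicate 2 (0.0798) or either CBE-2 library (0.0657 and 0.0657), and with only these 2 lines fitted (0.0533). CBE-2 differed from WT by 0.17 (adjusted p = 0.242). Eµ-/- differed by 0.21 (adjusted p = 0.147, or 0.0463 after scaling to TPM). Its range of line means was near the middle of all genes, with 49.0% of genes ranging less.

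Cdkn2d, the p19INK4D gene, had 39.4 and 34.7 FPKM in WT, 45.1 and 70.2 in CBE-1, 41.2 and 47.2 in CBE-2, and 53.5 and 86.7 in Eµ-/-. All mutant libraries were above WT, but replicate 2 of CBE-1 and of Eµ-/- stood well above replicate 1. The Eµ-/- difference was 0.87 (SE 0.28, adjusted p = 0.0693), and it was called with the replicate block (0.0242). It also passed without CBE-1 replicate 1 (0.0486), CBE-1 replicate 2 (0.0492) or Eµ-/- replicate 1 (0.0231). The differences of CBE-1 (0.59, adjusted p = 0.195) and CBE-2 (0.25, adjusted p = 0.598) did not pass.

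Cdkn1a was low in CBE-2 alone among the 4 lines. Its FPKM were 32.3 and 34.6 in WT, 22.8 and 36.1 in CBE-1, 5.32 and 8.92 in CBE-2, and 33.1 and 58.6 in Eµ-/-. The CBE-2 libraries lay below all others, and the WT libraries overlapped those of CBE-1 and Eµ-/-. The reads implied by the FPKM intervals were less far apart than the FPKM, at 1894 and 1674 in WT and 412 and 657 in CBE-2. The cause was not tested, so the size of the fold is uncertain. CBE-2 was 4.70-fold lower than WT by mean FPKM, a difference of -2.12 (SE 0.34, adjusted p = 0.00644). Without WT replicate 2 the adjusted p was 0.0509. CBE-2 was also lower than CBE-1, by -1.91 (adjusted p = 0.0174). This call was lost without CBE-1 replicate 2 (0.0770), CBE-2 replicate 1 (0.126) or CBE-2 replicate 2 (0.0516). Eµ-/- exceeded CBE-2 by 2.51 (adjusted p = 0.00463), which was called without any 1 of the 8 libraries. CBE-1 and Eµ-/- differed from WT by -0.21 (adjusted p = 0.725, 95% interval -1.04 to 0.61) and 0.39 (adjusted p = 0.461, 95% interval -0.44 to 1.21).

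Cdkn1b and Rb1 were lowest in WT, but without the replicate block no difference passed the test. Cdkn1b had 10.5 and 12.98 FPKM in WT, 16.5 and 21.8 in CBE-1, 14.0 and 19.2 in CBE-2, and 14.7 and 26.6 in Eµ-/-. Rb1 had 10.6 and 12.99 FPKM in WT, 15.2 and 18.8 in CBE-1, 14.3 and 18.8 in CBE-2, and 13.4 and 26.8 in Eµ-/-. For both genes every mutant library was above both WT libraries and the mutant lines overlapped each other. The share of all genes tested with every mutant library above WT is not given here. The Cdkn1b differences from WT were 0.65 in CBE-1, 0.46 in CBE-2 and 0.71 in Eµ-/- (SE 0.29, adjusted p = 0.183, 0.349 and 0.134). With the replicate block the adjusted p-values were 0.0153, 0.0510 and 0.0106, so the CBE-1 and Eµ-/- differences then passed. The Eµ-/- difference also passed without Eµ-/- replicate 1 (0.0245).

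Rb1 differed from WT by 0.49 in CBE-1, 0.45 in CBE-2 and 0.65 in Eµ-/- (SE 0.31, adjusted p = 0.327, 0.377 and 0.182). Only the Eµ-/- difference passed with the block (0.0310), and it also passed without Eµ-/- replicate 1 (0.0169). The Rb1 gene body contains Lpar6, a lysophosphatidic acid receptor gene at chr14:73637698-73640165, which had 5.39 to 9.45 FPKM. The strand setting of the counting is not given, so reads of the overlapping genes may not be fully separated.

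**Figure D3:**
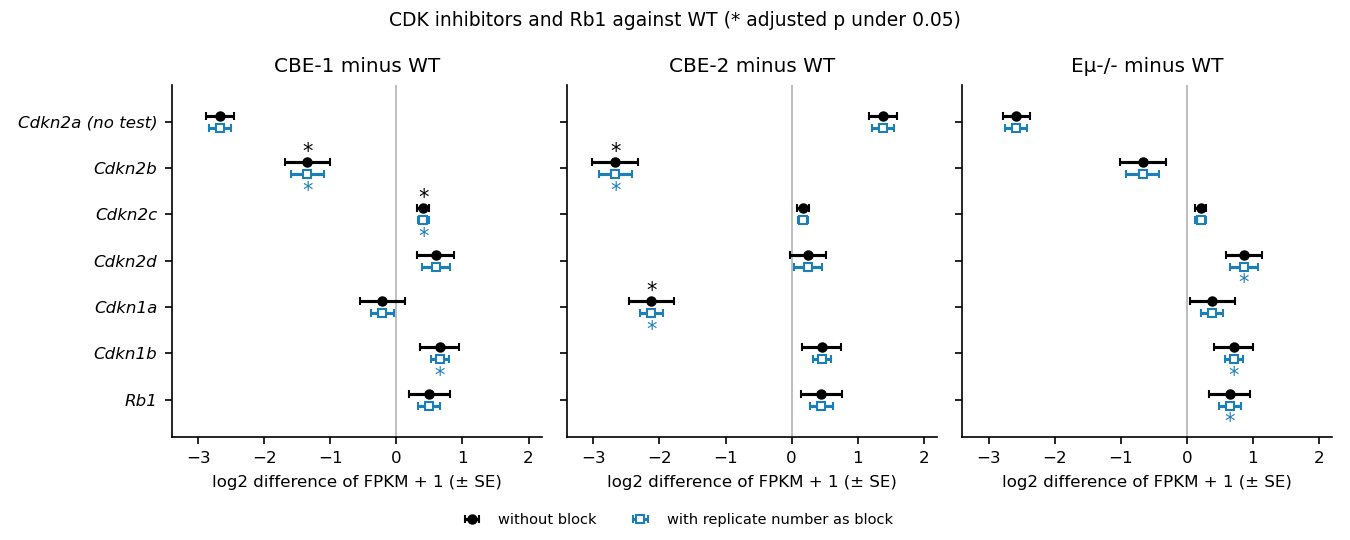
Difference from WT on the log2(FPKM + 1) scale in the 3 mutant lines; points are limma estimates, bars ± 1 SE, without the replicate block (filled) and with it (open), and stars an adjusted p under 0.05. Cdkn2b and Cdkn1a lie far below 0 in CBE-2, at -2.67 and -2.12, and Cdkn2c, Cdkn2d, Cdkn1b and Rb1 lie above 0 in all 3 lines; Cdkn2a has no test.

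Leaving Cdkn2a aside, 2 of 6 genes were called between CBE-1 and WT (Cdkn2b lower, Cdkn2c higher), where 19.4% of all genes were, 10.9% higher and 8.54% lower. With the block 3 of 6 were called against 30.0% of all genes. Between CBE-2 and WT 2 of 6 fell, Cdkn2b and Cdkn1a, where 18.7% of all genes were called and 8.19% fell (with the block 2 of 6 and 28.8%). Between Eµ-/- and WT limma called 0 of 6 (21.8% of all genes), 2 had an unadjusted p under 0.05, and with the block 3 were called (34.0% of all genes). CBE-2 and CBE-1 differed in 1 of 6, Cdkn1a, lower in CBE-2 (10.2% called, 5.03% lower), or 2 with the block (16.6%). Eµ-/- and CBE-2 differed in 2 of 6, Cdkn2b and Cdkn1a, both higher in Eµ-/- (13.2% called, 5.62% higher). With the block the same 2 genes were called (23.3%). Eµ-/- and CBE-1 differed in 0 of 6 (10.0%) by limma, also with the block (17.0%), and 0 had an unadjusted p under 0.05. With 6 genes these shares are too coarse to set apart from the background. The comparisons with WT share the WT libraries.

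The inhibitors together were led by different genes in different lines. The summed FPKM of the 6 inhibitors was 294.1 and 294.9 in WT, 171.5 and 236.2 in CBE-1, 501.6 and 506.6 in CBE-2, and 191.7 and 269.4 in Eµ-/-. Cdkn2a made up 48.6% and 48.7% of that sum in WT and 76.0% and 73.3% in CBE-2. In CBE-1 it made up 10.2% and 11.3%, and in Eµ-/- 10.5% and 9.84%, where Cdkn2c or Cdkn2d led instead. Without Cdkn2a the sum was 151.3 and 151.2 in WT, 154.0 and 209.4 in CBE-1, 120.6 and 135.5 in CBE-2, and 171.6 and 242.9 in Eµ-/-. CBE-2 thus had the highest total with Cdkn2a and the lowest without it. Because Cdkn2a was picked for its range, the total with it is a description only. That total also includes any Arf transcripts, which do not encode a CDK inhibitor. The ratio of Cdkn1b to Cdkn1a FPKM was 0.325 and 0.375 in WT, 0.723 and 0.602 in CBE-1, and 0.444 and 0.454 in Eµ-/-. In CBE-2 it was 2.63 and 2.15, the only line in which p27 transcripts outnumbered p21 transcripts per length.

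**Figure D4:**
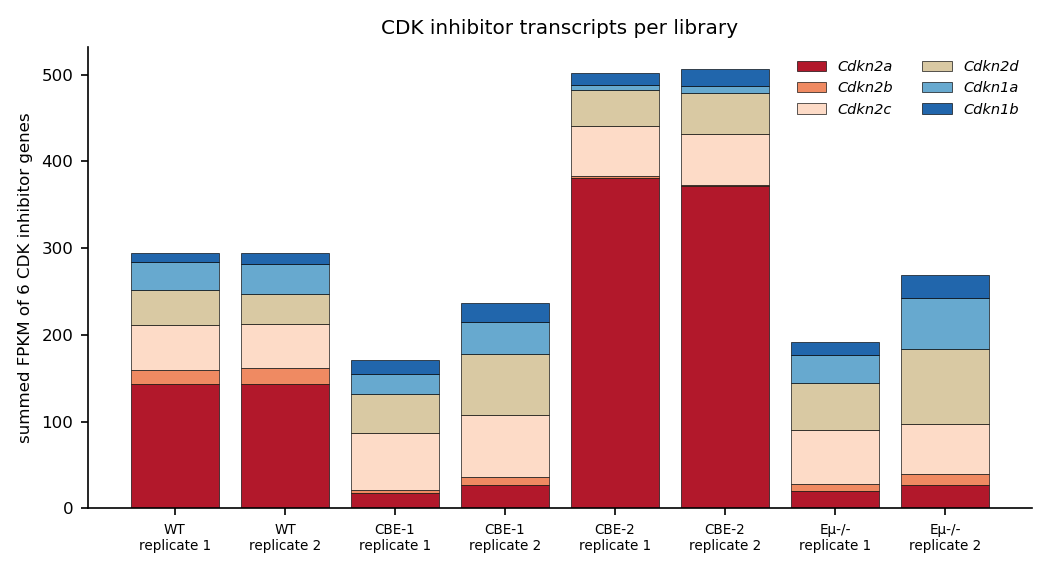
Stacked FPKM of the 6 CDK inhibitor genes in each library, from 0, coloured by gene. The totals run from 171.5 in CBE-1 replicate 1 to 506.6 in CBE-2 replicate 2, and the Cdkn2a segment is the largest in the WT and CBE-2 libraries only. Cdkn2a was picked for its range, and its segment includes any Arf transcripts.

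Replicate 2 was the higher library of all 4 lines for Cdkn1a, Cdkn1b and Rb1, which 26.1% of the genes tested also showed. For Rb1 the log2 difference of replicate 2 from replicate 1 was 0.28 in WT, 0.29 in CBE-1, 0.38 in CBE-2 and 0.95 in Eµ-/-. The Eµ-/- replicate 2 library was the highest of all 8 for Cdkn2d, Cdkn1a, Cdkn1b and Rb1. Across the 8 libraries Cdkn1b and Rb1 had a Pearson r of 0.98, Cdkn2a and Cdkn1a one of -0.72, and Cdkn2b and Cdkn1a one of 0.88. These are descriptions over 4 lines with 2 libraries each, which share line and replicate differences.

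Among 1481 genes whose line means ranged over at least 1 log2 unit, the nearest in pattern to Cdkn2a were Rnase11 (r = 0.99), Hvcn1 (0.98) and Lgr5 (0.97) over the 8 libraries. Rnase11 reached 1 FPKM in CBE-2 only (2.30 and 2.21), so it passed the filter through that line, and Lgr5 was at most 2.79. Low values also mark Gstm4, Ckb, Selenbp1, Tgm1 and Zrsr1 below, at most 2.37, 3.42, 3.09, 2.03 and 2.24 FPKM. Hvcn1, a proton channel gene, had 9.57 and 10.3 FPKM in WT, 0.837 and 1.90 in CBE-1, 12.8 and 15.8 in CBE-2, and 0.539 and 1.04 in Eµ-/-. It was high in CBE-2 and WT and low in the other lines. Because it was picked for its likeness to Cdkn2a, this is a description only. The nearest to Cdkn2b were Cyb561a3 (0.98), Ltbp4 (0.98) and Tmbim1 (0.98). For Cdkn1a they were Lif, a cytokine gene, (0.99), Phyh (0.99) and Zrsr1 (0.97). Lif had 8.59 and 9.34 FPKM in WT, 6.26 and 8.63 in CBE-1, 1.86 and 2.58 in CBE-2, and 8.71 and 10.7 in Eµ-/-. It was lowest in CBE-2, which likewise follows from how it was picked. Cdkn2c was nearest to Gstm4 (0.98), Ckb (0.97) and Selenbp1 (0.97), and Cdkn2d to Tgm1 (0.98), Spsb1 (0.98) and Ltb (0.97). Cdkn1b was nearest to Fcrl1 (0.96), Ltb (0.95) and Foxj2 (0.95), and Rb1 to Foxj2 (0.94), Bcar3 (0.93) and Agpat9 (0.92).

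The genes around these inhibitors were read against the shares of all genes called. Against WT, 10.9% of all genes rose and 8.54% fell in CBE-1, 10.5% rose and 8.19% fell in CBE-2, and 11.3% rose and 10.4% fell in Eµ-/-. With the replicate block the shares were 15.9% and 14.1%, 15.7% and 13.1%, and 17.6% and 16.4%. Between CBE-2 and CBE-1, 5.17% of all genes were higher in CBE-2 and 5.03% lower, or 8.25% and 8.32% with the block.

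Of the kinases and cyclins that the INK4 proteins act on, 1 of 4 tested fell in each line, Cdk6, where 8.54%, 8.19% and 10.4% of all genes fell. It had 19.6 and 23.3 FPKM in WT, 8.52 and 7.15 in CBE-1, 8.55 and 8.81 in CBE-2, and 12.8 and 8.49 in Eµ-/-. Cdk6 fell in all 3 mutant lines, with differences from WT of -1.35 (CBE-1, adjusted p = 0.00371), -1.21 (CBE-2, 0.00567) and -0.97 (Eµ-/-, 0.0143). The first call held without any 1 library. The second was lost without WT replicate 2 (0.0535), and the third without WT replicate 1 (0.0526) or WT replicate 2 (0.107). With only WT and Eµ-/- fitted, the third was 0.0741. Cdk4 was at 437.4 to 462.5 FPKM in WT and 267.7 to 450.5 in the mutants, and Ccnd3 at 468.5 and 654.2 in WT and 529.3 to 853.6 in the mutants. Neither they nor Ccnd2 passed in any comparison with WT with all libraries. Without either CBE-1 library Ccnd2 passed as higher in CBE-2, and without Eµ-/- replicate 1 Cdk4 passed as lower in Eµ-/-. Of the 5 genes listed 4 were tested, and their median difference was -0.12, 0.06 and -0.22 in CBE-1, CBE-2 and Eµ-/-, beside 0.02, 0.04 and 0.01 for all genes.

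Of the 8 tested genes for cyclins E and A, CDK2 and its activators, 3 rose in CBE-1 (beside 10.9% of all genes), 4 in CBE-2 (beside 10.5%) and 2 in Eµ-/- (beside 11.3%). None fell, but with the replicate block Mnat1, a subunit of the CDK-activating kinase, fell in CBE-2 and in Eµ-/-, and the counts that rose stayed at 3, 4 and 2. The genes that rose were Ccna2 (cyclin A2) and Cdk2 in all 3 lines, Ccne1 in both CBE lines and Ccne2 (cyclin E2) in CBE-2. The median differences over all 8 genes were 0.20, 0.32 and 0.16. Ccne1, the cyclin E1 gene, had 18.0 and 17.3 FPKM in WT, 24.6 and 24.0 in CBE-1, 32.0 and 30.1 in CBE-2, and 17.6 and 18.9 in Eµ-/-. It rose by 0.78 in CBE-2 (adjusted p = 0.00114), also without any 1 library, and by 0.44 in CBE-1 (0.0149). The latter was lost without WT replicate 1 (0.0894), WT replicate 2 (0.136) or CBE-1 replicate 1 (0.0644). In Eµ-/- the Ccne1 difference was 0.04 (0.767).

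The other calls of these cyclin and CDK2 genes depended more on single libraries. Cdk2 in CBE-1 was called in 2 of the 8 fits that left out 1 library, and it was lost with a pseudocount of 5 (0.0516), quantile normalization (0.0826), no mean-variance trend (0.0539) and only these 2 lines fitted (0.0743). Cdk2 was called in 5 of those 8 fits in CBE-2 and in 3 in Eµ-/-, where it was also lost with only 2 lines fitted (0.117). Ccne2 in CBE-2 was called in 4 of the 8 and lost without the filter on low values (0.0527). Ccna2 was called in 6, 5 and 7 of the 8, in the order CBE-1, CBE-2 and Eµ-/-, and in Eµ-/- it was lost with only 2 lines fitted (0.0729). The count that rose in CBE-1 was 0 without WT replicate 2 or CBE-1 replicate 1 and 1 without WT replicate 1. In CBE-2 it was 1 without either CBE-2 library and 2 without either WT library. In Eµ-/- it was 0 without WT replicate 2 and 1 without WT replicate 1, Eµ-/- replicate 2 or either CBE-2 library.

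Of 12 tested genes for the other pocket proteins and the E2F and DP factors, 3 rose in CBE-1 (25.0%, beside 10.9% of all genes), 3 in CBE-2 (25.0%, beside 10.5%) and 5 in Eµ-/- (41.7%, beside 11.3%). In Eµ-/- 1 fell (8.33%, beside 10.4%). The pocket protein gene Rbl1 and E2f2 rose in all 3 lines, E2f5 in CBE-1 and Eµ-/-, E2f7 in CBE-2 and Eµ-/-, and E2f8 in Eµ-/-, where E2f6 fell. Medians were 0.19, 0.29 and 0.23. With the block, 4, 5 and 5 rose and the same 1 fell. E2f2 had 26.5 and 23.8 FPKM in WT and 37.6 to 44.0 in the 6 mutant libraries, and it rose by 0.68, 0.63 and 0.65 (adjusted p = 0.00995, 0.0123 and 0.0117). Without WT replicate 2 these were 0.0949, 0.109 and 0.102. In CBE-1 the E2f2 call was also lost without CBE-1 replicate 1 (0.0513), in CBE-2 without WT replicate 1 (0.0532), CBE-2 replicate 1 (0.109) or CBE-2 replicate 2 (0.0627), and in Eµ-/- without WT replicate 1 (0.0517).

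The E2f6 fall was lost without WT replicate 1 (0.0937), WT replicate 2 (0.133) or Eµ-/- replicate 2 (0.0575) and with only 2 lines fitted (0.0807). The E2f8 rise was called in 1 of the 8 fits that left out 1 library. It was also lost with a pseudocount of 5 (0.0530), no filter on low values (0.0858), quantile normalization (0.0598), no trend (0.0513), only 2 lines fitted (0.115) and all statuses kept (0.05004). Rbl1 was called in 3, 2 and 3 of the 8 fits, in the order CBE-1, CBE-2 and Eµ-/-. Without WT replicate 2 the counts of these pocket protein and E2F genes that rose were 0, 0 and 1, and without WT replicate 1 they were 1, 0 and 0. They were 1, 0 and 2 without either CBE-2 library, 0 in CBE-1 without its replicate 1, and 2 in Eµ-/- without its replicate 2. Rbl2 and E2f1 did not pass in any comparison with WT.

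Of 20 E2F target genes tested, 1 rose in CBE-1 (5.0%, beside 10.9% of all genes), 1 in CBE-2 (5.0%, beside 10.5%) and 3 in Eµ-/- (15.0%, beside 11.3%), and none fell. Without the replicate block the share in both CBE lines was below that of all genes. Medians were 0.29, 0.30 and 0.11. With the block 4, 7 and 4 of the 20 rose, beside 15.9%, 15.7% and 17.6% of all genes. The counts of 4, in CBE-1 and Eµ-/-, were close to those shares. Cdc45, a replication helicase factor, was called in all 3 lines, and the other two in Eµ-/- were Rrm2 and Pola1 (Cdc45 differences 0.34, 0.50 and 0.36, adjusted p = 0.0405, 0.00902 and 0.0300). The Cdc45 call in CBE-1 was also lost with only 2 lines fitted (0.0808) and under quantile normalization (0.0617), and that in Eµ-/- with only 2 lines fitted (0.102). Without WT replicate 1 no E2F target was called in any of the 3 lines, and without WT replicate 2 only 1, in CBE-2. Without either CBE-2 library the counts were 0, 0 and 0. Without either CBE-1 library that line had 0 calls, and without Eµ-/- replicate 2 the Eµ-/- count was 1, with Cdc45 at 0.0781. Without Eµ-/- replicate 1, 2 rose and 1 fell in Eµ-/-. Without either Eµ-/- library CBE-1 had 2 calls and CBE-2 had 3, all higher.

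**Figure D5:**
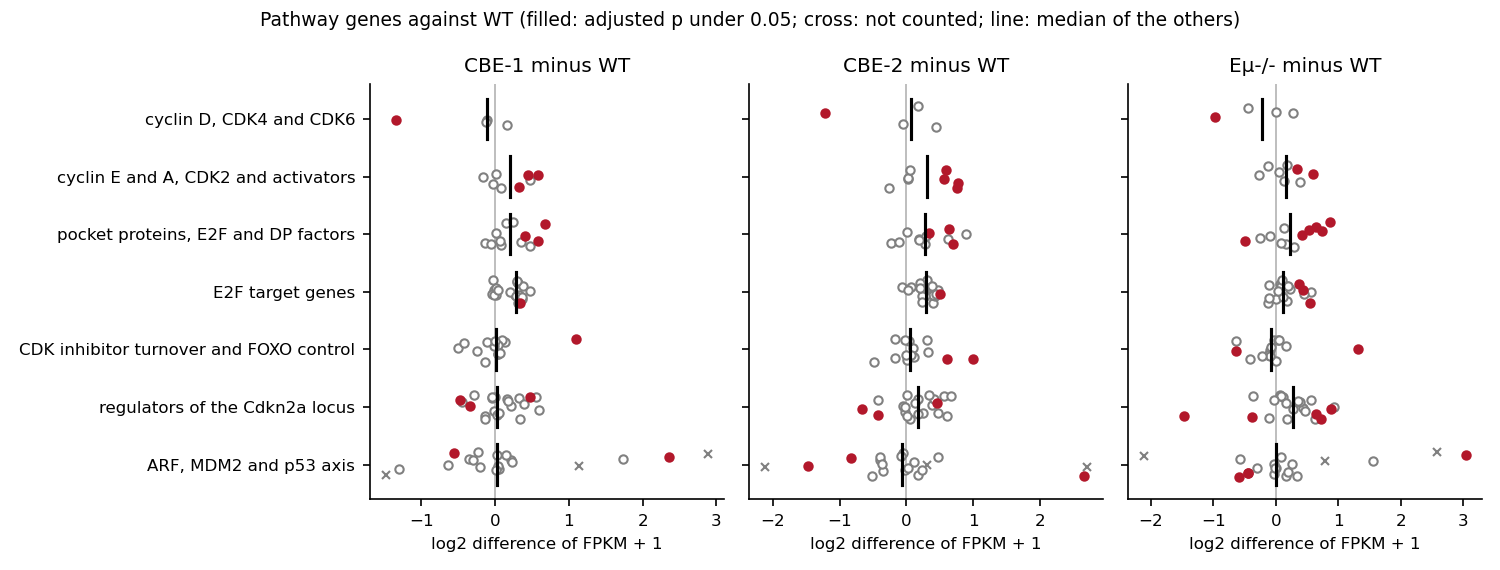
Difference from WT on the log2(FPKM + 1) scale of each tested gene of 7 pathway lists in the 3 mutant lines; filled points had an adjusted p under 0.05 by limma, crosses are the 3 genes not counted because they passed the filter on low values through 1 side only, and black bars are the medians of the others. The lists around ARF, MDM2 and p53 and of Cdkn2a regulators hold filled points on both sides of 0 in every mutant line. Those of pocket proteins and of inhibitor turnover do so in Eµ-/- only. Those of cyclins E and A and of E2F targets hold them only above 0, with 1 E2F target in each CBE line.

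Genes of the ARF, MDM2 and p53 axis moved in both directions. Of 19 tested, 3 reached 1 FPKM in WT libraries only (Phlda3) or in mutant libraries only (Pmaip1 and Zmat3). They had to differ to be tested, so they are described below and not counted, a choice made after their values were seen. Of the 16 others, 1 rose and 1 fell in CBE-1 (6.25% each), 1 rose (6.25%) and 2 fell (12.5%) in CBE-2, and 1 rose (6.25%) and 3 fell (18.8%) in Eµ-/-. Over all genes, the shares were 10.9% and 8.54%, 10.5% and 8.19%, and 11.3% and 10.4%. Medians were 0.02, -0.06 and 0.00. With the block 2 rose and 2 fell, 1 rose and 4 fell, and 3 rose and 4 fell.

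Gadd45a rose in all 3 lines. Bax fell in CBE-2 and Eµ-/-, Npm1 in CBE-1, Ccng1 in CBE-2, and Sesn1 and Ei24 in Eµ-/-. Without either WT library or either CBE-2 library none fell in CBE-1 or Eµ-/-, and none fell in CBE-1 without its replicate 1. Without Eµ-/- replicate 1, 5 rose and 2 fell in Eµ-/-. Without either Eµ-/- library 2 rose and 1 fell in CBE-1, and 1 rose and 4 fell in CBE-2. Trp53 itself had 81.0 and 84.3 FPKM in WT and 82.8 to 93.4 in the mutants, with differences of 0.02, 0.17 and 0.17 that did not pass. Mdm2 differed by 0.21, -0.01 and 0.34, also short of the threshold (adjusted p = 0.295, 0.959 and 0.101, the last 0.0372 with the block).

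Ccng1, the p53 target cyclin G1, was lowest in CBE-2, as Cdkn1a was. It had 45.7 and 47.7 FPKM in WT, 46.3 and 49.7 in CBE-1, 16.2 and 16.1 in CBE-2, and 25.7 and 37.5 in Eµ-/-. Its difference was -1.47 between CBE-2 and WT (adjusted p = 0.00123) and -1.51 between CBE-2 and CBE-1 (0.00233), both also called without any 1 library. Bax, a death effector, had 152.9 and 167.2 FPKM in WT and 92.7 and 86.1 in CBE-2, a difference of -0.83 (0.00368) that held without any 1 library. The Bax call in Eµ-/- was lost in 5 of the 8 fits that left out 1 library (0.0855 to 0.226), after TPM scaling (0.0925), under quantile normalization (0.161) and with only 2 lines fitted (0.108).

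Gadd45a, a growth arrest gene, had 1.23 and 0.568 FPKM in WT and 6.58 to 14.6 in the mutants, and rose by 2.36, 2.66 and 3.04. These calls held without any 1 library (highest adjusted p = 0.00995). Pmaip1, which encodes the death effector NOXA, had 0.00900 and 0 FPKM in WT and 3.92 to 6.40 in the 6 mutant libraries. Phlda3, an AKT repressor, had 3.54 and 3.96 FPKM in WT and at most 0.802 in the mutants, and without either WT library it no longer passed the filter on low values. Zmat3, a p53-induced zinc finger gene, had 0.0364 and 0.0457 FPKM in WT, 1.05 and 1.57 in CBE-1, 0.230 and 0.341 in CBE-2, and 0.498 and 1.15 in Eµ-/-. For these 3 genes no library of WT overlapped one of the mutants, and no test is given.

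Between CBE-2 and CBE-1, 1 of the 16 counted genes fell, Ccng1 (6.25%, beside 5.03% of all genes), and none rose. With the block Bax also fell and Sesn1 rose, so that 1 rose and 2 fell, as without either Eµ-/- library. Without CBE-1 replicate 2, 1 rose and 1 fell.

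Among 14 genes for CDK inhibitor turnover and FOXO control, 1 rose in CBE-1, 2 in CBE-2 and 1 in Eµ-/-, where Cul4a, a ubiquitin ligase scaffold, fell. The shares that rose were 7.14%, 14.3% and 7.14%, beside 10.9%, 10.5% and 11.3% of all genes, and the share that fell in Eµ-/- was 7.14%, beside 10.4%. The medians were 0.01, 0.06 and -0.08. With the block 3 rose in CBE-2, and 1 rose and 2 fell in Eµ-/-. The added fall in Eµ-/- was that of Ddb1, and the added rise in CBE-2 that of Foxo4. In Eµ-/- 2 fell without its replicate 1. Without Eµ-/- replicate 2 or either CBE library the Eµ-/- counts did not move, and without WT replicate 2 they were 0. Foxo1 had 16.9 and 15.3 FPKM in WT and 31.3 to 53.3 in the mutants, and rose by 1.09, 1.00 and 1.32 (adjusted p = 0.0150, 0.0209 and 0.00711). These calls were lost without WT replicate 2 (0.109, 0.132 and 0.0608). The first 2 were lost without WT replicate 1 (0.0696 and 0.0884) or either library of that line itself (0.0603 and 0.0620, 0.0848 and 0.136). With only WT and Eµ-/- fitted the third was 0.0544. Skp2 had 12.1 and 12.7 FPKM in WT and 19.2 and 19.5 in CBE-2, a rise of 0.61 (0.0201). The Skp2 call, 1 of the 2 in CBE-2, was lost without WT replicate 1 (0.134), WT replicate 2 (0.104), CBE-2 replicate 1 (0.117) or CBE-2 replicate 2 (0.131).

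Of 21 tested regulators of the Cdkn2a locus, 1 rose and 2 fell in CBE-1, 1 rose and 2 fell in CBE-2, and 3 rose and 2 fell in Eµ-/-. The shares that rose were 4.76%, 4.76% and 14.3%, beside 10.9%, 10.5% and 11.3% of all genes, and 9.52% fell in each line, beside 8.54%, 8.19% and 10.4%. Without the replicate block the share that rose in both CBE lines was below that of all genes, and in every line the share that fell was near it. The Polycomb gene Suz12 rose and Bmi1 fell in all 3, Ring1 fell in both CBE lines, and in Eµ-/- Cbx2 and Ets1 rose and Ets2 fell. With the block 4, 5 and 8 of the 21 rose, beside 15.9%, 15.7% and 17.6% of all genes, and the CBE-1 count was close to that share. In each line 3 fell, a share near the 14.1%, 13.1% and 16.4% of all genes. Medians were 0.03, 0.17 and 0.27. Bmi1, a Polycomb repressor of the locus, had 17.6 and 16.5 FPKM in WT and 11.8 to 13.6 in the mutants, and fell, with differences of -0.34, -0.43 and -0.38 (adjusted p = 0.0488, 0.0213 and 0.0307). The CBE-1 call was lost without any of the WT, CBE-1 or CBE-2 libraries (0.0983 to 0.267), the CBE-2 call without any of the WT or CBE-2 libraries (0.0860 to 0.185), and the Eµ-/- call without any of the WT or CBE-2 libraries or Eµ-/- replicate 2 (0.0677 to 0.204). After TPM scaling the CBE-1 and Eµ-/- values were 0.0941 and 0.0692, and with only 2 lines fitted 0.0909 and 0.0993. Bmi1 was lower than in both WT libraries in all 6 mutant libraries. These include CBE-2, where Cdkn2a was above WT, and CBE-1 and Eµ-/-, where Cdkn2a was below WT. A link between Bmi1 and Cdkn2a was not tested. Ezh2 differed by -0.14, 0.01 and 0.46 and did not pass (adjusted p = 0.537, 0.975 and 0.0523, the last 0.0370 with the block). Ets2, an activator of p16Ink4a, had 5.06 and 3.21 FPKM in WT and 0.911 and 0.748 in Eµ-/-, where it fell by 1.47 (0.00526), also without any 1 library. Without WT replicate 1 or either CBE-2 library no regulator was called in CBE-1 or CBE-2. Without WT replicate 2 none was called in CBE-1, and in CBE-2 none rose and 1 fell. In CBE-1, 1 rose and none fell without its replicate 1, and none rose and 1 fell without its replicate 2. In CBE-2, 2 rose and 2 fell without either CBE-1 or either Eµ-/- library. In Eµ-/-, 1 rose and 1 fell without either WT library or Eµ-/- replicate 2, 2 rose and 1 fell without either CBE-2 library, 5 rose and 3 fell without either CBE-1 library, and 8 rose and 2 fell without Eµ-/- replicate 1.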

How the data were processed

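The files hold, per the file headers, 1 Cufflinks FPKM per gene entry with an interval and a status. TopHat, Cufflinks and mm9 are named in the submitters' processing notes, without versions or settings. Libraries were made with a stranded mRNA kit and sequenced as single reads, per the labels' protocols. Rows of 1 symbol were summed (277 symbols at several loci) and 21 symbols whose status was not OK in some library were left out. The reads implied by the FPKM intervals, taken as 2 SD either side, summed to 31.3 to 49.5 M a library. For the described genes they ran from 126 (Cdkn2b) to 6546 (Rb1) a library. The intervals leave out the spread between libraries, and whether they hold more than counting error is not known.

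FPKM as deposited were tested as log2(FPKM + 1) in R 4.3.3 by limma 3.58.1 (eBayes with trend, 4 residual degrees of freedom), fitted to all 8 libraries, two-sided, at an adjusted p of 0.05. The script was tested on simulated data in which libraries varied independently, without the shared replicate differences described next. That test therefore does not bear on how those differences affect the calls. Replicate numbers are shared by the lines: differences of replicate 2 from replicate 1 correlated across genes in all 6 pairs of lines (r = 0.28 to 0.50), so a fit with replicate number as a block is given where it changes a call.

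The described genes and pathway lists were chosen with earlier results of these data known. Named were all 7 genes, at most the 3 largest called differences per list and comparison plus fixed pathway genes, neighbours within 1 Mb, and the 3 genes of highest r. Klhl9, Mtap, Rcbtb2 and Med4 were named under the neighbour rule. Mnat1, Ddb1, Foxo4 and Zmat3 were named after their values were seen. The CBE-1 counts of the turnover and FOXO list under the block and without single Eµ-/- libraries are not reported here. Alternatives were other pseudocounts (0.1 and 5), no filter on low values, 3 scalings, no trend, only the lines compared, the block, all statuses kept, and each library left out.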

Additional observations from a re-analysis of the deposited data

Results flagged for a closer look

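In Cdkn2a the lines that share the IGCR1-/- genotype stood on opposite sides of WT: both CBE-2 libraries were above both WT libraries and both CBE-1 libraries were below them. CBE-2 exceeded CBE-1 by 4.06 on the log2(FPKM + 1) scale. This difference was not tested, because the gene was picked for its range.

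Cdkn1a also differed between the lines of that genotype. CBE-2 minus CBE-1 was -1.91 by limma (adjusted p = 0.0174), with both CBE-2 libraries below both of CBE-1.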

How the results depend on the processing

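Differences called for the 6 tested genes kept their sign under every alternative run. Those below, none of them called with all libraries, changed sign when some 1 library was left out, and are given by their lowest and highest values over the 8 such fits. Cdkn1a was -0.53 to 0.11 between CBE-1 and WT and -0.017 to 0.79 between Eµ-/- and WT. Between CBE-2 and CBE-1, Cdkn1b was -0.41 to 0.015 and Rb1 -0.23 to 0.15. Between Eµ-/- and CBE-1, Cdkn2d was -0.071 to 0.61, Cdkn1b -0.35 to 0.47 and Rb1 -0.31 to 0.63. Between Eµ-/- and CBE-2, Cdkn2c was -0.014 to 0.085, Cdkn1b -0.15 to 0.67 and Rb1 -0.27 to 0.67. Cdkn2a, which was not tested, was -0.21 to 0.39 between Eµ-/- and CBE-1. Its differences of CBE-1 from WT (-2.97 to -2.38) and of CBE-2 from CBE-1 (3.76 to 4.35) also moved but kept their sign. Among all other results of the 7 genes, 9 gained a call and 3 lost one under settings that kept every library, and 7 gained and 17 lost one with a library left out.

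For the 6 tested genes, the count called between CBE-1 and WT (2) was 1 without the filter and 0 with only those lines fitted. Between Eµ-/- and WT (0) it was 1 after TPM scaling, and between CBE-2 and CBE-1 (1) it was 2 with a pseudocount of 0.1, median-of-ratios scaling or quantile normalization. With the replicate block the counts were 3 for CBE-1 and WT, 3 for Eµ-/- and WT and 2 for CBE-2 and CBE-1. The block changed no other count of these genes.

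Over all genes, the replicate block gave 3142 calls between CBE-1 and WT (2033 without), 3013 between CBE-2 and WT (1960), 3563 between Eµ-/- and WT (2284), 1736 between CBE-2 and CBE-1 (1069), 1780 between Eµ-/- and CBE-1 (1051) and 2445 between Eµ-/- and CBE-2 (1387). With only the lines compared there were 3527 between CBE-2 and WT, 1255 between Eµ-/- and WT, 405 between Eµ-/- and CBE-1 and 787 between Eµ-/- and CBE-2. The cause of these shifts was not tested, beyond the fewer libraries fitted. With quantile normalization the calls between CBE-2 and WT were 1014 higher and 1198 lower, against 1102 and 858.

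Leaving out 1 library at a time, the 6 tested genes gave 0 to 2 calls between CBE-1 and WT, 1 to 2 between CBE-2 and WT, 0 to 3 between Eµ-/- and WT, 0 to 2 between CBE-2 and CBE-1, 0 to 1 between Eµ-/- and CBE-1 and 1 to 2 between Eµ-/- and CBE-2. All genes gave, in that order, 784 to 2610, 837 to 2524, 784 to 3260, 259 to 1373, 692 to 1588 and 432 to 2367. A line left with 1 library is assumed to vary like the others. Cdkn2b in CBE-2 rests on the fewest reads, so its level there is the least precise of the 7 genes.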

Other observations

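Around Rb1, 9 of 11 symbols within 1 Mb were tested. Rcbtb2, the gene next to Rb1, had 19.4 and 18.4 FPKM in WT and 24.9 to 28.8 in the 6 mutant libraries. It rose by 0.50 in CBE-1, 0.40 in CBE-2 and 0.50 in Eµ-/- (limma, adjusted p = 0.0114, 0.0268 and 0.0119). All 3 Rcbtb2 calls were lost without WT replicate 1 (0.0663, 0.122 and 0.0692) or WT replicate 2 (0.113, 0.196 and 0.109). The first was also lost without CBE-1 replicate 1 (0.0542), the second without either CBE-2 library (0.148 and 0.190) and the third with only 2 lines fitted (0.0539). Med4, a Mediator subunit gene, had 38.6 and 37.1 FPKM in WT and 52.0 and 47.9 in CBE-2, a rise of 0.39 (adjusted p = 0.0275). The Med4 call was lost without either WT library (0.137 and 0.193) or either CBE-2 library (0.220 and 0.113), and with median-of-ratios scaling (0.0572).

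Among 6 other CDK inhibitors and CDK-binding genes, 4 were tested and none was called against WT, with median differences of 0.10, 0.20 and 0.17 in CBE-1, CBE-2 and Eµ-/-. Cdkn1c, the p57 gene, was listed at 0 in all libraries except those of CBE-2 (0.219 and 0.183 FPKM) and was not tested. Cdkn3, a CDK-associated phosphatase gene, had 19.9 and 11.1 FPKM in WT, 33.1 and 22.2 in CBE-1, 25.3 and 21.2 in CBE-2, and 28.0 and 23.1 in Eµ-/-. Replicate 1 was the higher library of every line, opposite to Cdkn1b and Rb1. With the replicate block the Cdkn3 differences of 0.82, 0.60 and 0.73 had adjusted p-values of 0.00851, 0.0262 and 0.0124, against 0.102, 0.219 and 0.126 without it.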
